A study of Schmidtea mediterranea with 16 samples.

Results

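The genes described here were abundant in planarian cells sorted by the X1 gate, which is described below. They had nearly the same mean level in all groups of an irradiation and RNAi experiment. They were chosen from the measured values. Counts of each library were divided by the library's gene total and given as CPM, that is, a gene's reads for every 1000000 of the library's gene reads. A gene qualified when the highest and the lowest of its 4 group means of log2(CPM + 1) lay at most 0.2 apart, and the 200 such genes with the highest mean CPM over all 16 libraries were taken. These 200 members came from a matrix of 26833 genes. At any level, 5499 genes met the limit, most of them with few or no reads: 537 of the 5499 had a mean of at least 1 CPM. The matrix held 3043 genes at least as abundant as the last member, so 6.57% of that stretch were members and 2843 genes were not. Since the choice used every library and every contrast between groups, the levels below are a description, and agreement of the group means is not a finding.

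The libraries were made from poly(A) RNA of X1 cells of Schmidtea mediterranea. X1 is a gate in flow cytometry for planarian cells with a DNA content above that of resting cells, and it is known to hold mainly cycling neoblasts, the stem cells from which all tissues of the animal are renewed. Ionizing radiation removes neoblasts and with them the ability to regenerate. ATM is a protein kinase known in other animals to be activated by breaks in DNA, and unc-22 is a muscle gene of a nematode that is used in planarians as the control target for RNAi. The series asked what knockdown of atm does to the transcripts of X1 cells.

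There were 4 groups of 4 libraries each: irradiated atm(RNAi), irradiated unc-22(RNAi), unirradiated atm(RNAi) and unirradiated unc-22(RNAi). Irradiated animals had received 2000 rads and were sampled 1 day later, and all 4 groups share RNAi treatment and the X1 gate. The labels do not say how RNAi was given, how many cells were sorted, or whether replicates came from separate groups of animals, so p-values measure the spread between these libraries, which may be technical. The deposited files give genes by identifier alone, in the form dd_Smed_v6 followed by numbers. No reference that pairs these identifiers with names was used here. Functions of the members, the atm transcript and markers of neoblasts or other cell types were therefore not analysed here, and the X1 label was not checked against markers. CPM is not per gene length, so levels are compared between libraries and not between genes.

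Gene totals averaged 19.5 ± 3.8 M reads in irradiated atm(RNAi), 11.3 ± 3.42 M in irradiated unc-22(RNAi), 21.0 ± 2.92 M in unirradiated atm(RNAi) and 21.6 ± 3.64 M in unirradiated unc-22(RNAi) (SD, n = 4 each; M, 1000000 reads). The library with the lowest total was irradiated unc-22(RNAi) replicate 1, at 6.99 M. Every irradiated unc-22(RNAi) library had a higher unmapped share than any library of the other groups, at 65.6%, 70.9%, 50.5% and 58.5% in replicates 1 to 4. The highest elsewhere was 46.4%, in unirradiated unc-22(RNAi) replicate 3. The lowest count of any member in any library was 259 reads, and the SD expected from counting is given below. Per the deposited file names, replicates 1 and 2 of every group were sequenced in lane 8 and replicates 3 and 4 in lane 7, so lane and replicate number cannot be told apart.

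The members covered a wide span of levels, with mean CPM between 48.3 and 17590 and a median of 99.0. Of the 200, 5 had at least 1000 CPM, 94 had 100 to 1000 CPM and 101 had less than 100 CPM. Their share of the genes was similar along the abundance ranks. It was 5 of the top 100 genes, 22 of the next 400 (5.5%), 39 of the next 500 (7.8%), 56 of the next 1000 (5.6%) and 78 of the last 1043 (7.48%). The limit of 0.2 cut through a continuous distribution. Among the 3043 abundant genes, 34 lay within 0.1, 468 within 0.3, 1199 within 0.5 and 2428 (79.8%) within 1.0. The range of group means had a median of 0.14 among members and of 0.62 among the other 2843 genes, on the log2(CPM + 1) scale. No gap separated members from other genes. The members nearest to the limit were dd_Smed_v6_2894_0_1, dd_Smed_v6_654_0_1 and dd_Smed_v6_5017_0_1, the first of them at 0.1999, and the nearest abundant genes beyond it were dd_Smed_v6_836_0_1, dd_Smed_v6_10119_0_1 and dd_Smed_v6_6124_0_1, the first of them at 0.2010. By abundance the last members were dd_Smed_v6_6469_0_1 at 48.6 CPM and dd_Smed_v6_3481_0_1 at 48.3 CPM, and the first genes past them that met the limit were dd_Smed_v6_7774_0_1 at 48.1 CPM and dd_Smed_v6_4001_0_1 at 47.9 CPM.

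**Figure D1:**
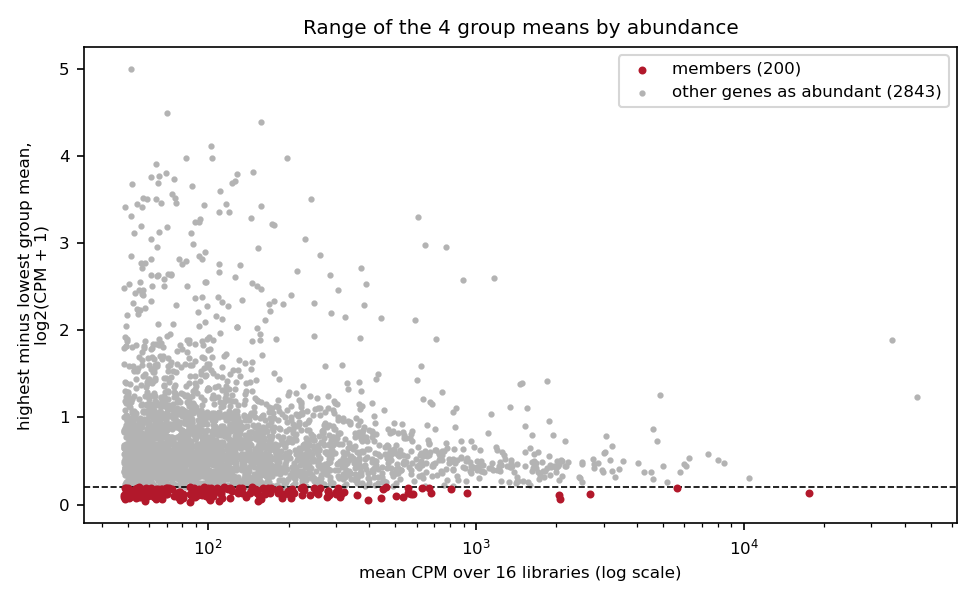
Each point is a gene, with its mean CPM over 16 libraries on a log x axis and the highest minus the lowest of its 4 group means of log2(CPM + 1) on the y axis; red points are the 200 members, grey points the 2843 other genes at least as abundant as the last member, and the dashed line is the limit of 0.2. Members lie along the whole range of abundance, and grey points start directly above the line.

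The member with the most reads, dd_Smed_v6_15_0_1, was the third most abundant gene of the whole matrix. It had 18400, 17160, 17460 and 17370 CPM in irradiated atm(RNAi) replicates 1 to 4, and 19510, 13710, 18020 and 15370 CPM in irradiated unc-22(RNAi) replicates 1 to 4. In unirradiated cells it had 18380, 16840, 18790 and 17820 CPM in atm(RNAi) and 19180, 18170, 18240 and 17100 CPM in unc-22(RNAi). The highest and the lowest of these 16 libraries were both irradiated unc-22(RNAi) ones, replicates 1 and 2, and all 4 groups overlapped. This gene alone made up 1.76 ± 0.0552% of the gene counts in irradiated atm(RNAi), 1.67 ± 0.260% in irradiated unc-22(RNAi), 1.80 ± 0.0847% in unirradiated atm(RNAi) and 1.82 ± 0.0849% in unirradiated unc-22(RNAi) (SD, n = 4 each). In a sorted population read in bulk, a lower share of a transcript can come from fewer cells that express it or from less of it per cell. It can also come from more reads of other genes in the column sum, and these cannot be told apart.

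The next most abundant member, dd_Smed_v6_93_0_1, showed the same pair of extreme libraries. It had 6236, 5470, 5615 and 6153 CPM in irradiated atm(RNAi) and 6701, 3579, 6019 and 4848 CPM in irradiated unc-22(RNAi), and in unirradiated cells 6012, 5633, 5897 and 5883 CPM in atm(RNAi) and 5916, 5766, 5345 and 5499 CPM in unc-22(RNAi). Its SD was 1372 CPM in irradiated unc-22(RNAi), against 160 to 382 CPM in the other 3 groups. The member after these, dd_Smed_v6_36_0_1, averaged 2561 ± 62.3 CPM in irradiated atm(RNAi), 2728 ± 231 CPM in irradiated unc-22(RNAi), 2573 ± 123 CPM in unirradiated atm(RNAi) and 2788 ± 207 CPM in unirradiated unc-22(RNAi) (SD, n = 4 each). Both of its atm(RNAi) means were below both of its unc-22(RNAi) means, and the libraries overlapped in irradiated and in unirradiated cells.

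Of the 10 most abundant members, dd_Smed_v6_78_0_1 was the one with the smallest spread, and it had the smallest mean SD within groups of all 200, 0.04 on the log2(CPM + 1) scale. It had 2050, 1972, 2115 and 2089 CPM in irradiated atm(RNAi), 1940, 1914, 2178 and 2053 CPM in irradiated unc-22(RNAi), 2064, 2015, 2102 and 2086 CPM in unirradiated atm(RNAi) and 2103, 2129, 2116 and 2073 CPM in unirradiated unc-22(RNAi). All 16 libraries lay between 1914 and 2178 CPM. Another of the 10, dd_Smed_v6_114_0_1, had a similar mean level and a wider spread, with 1998 ± 91.7 CPM in irradiated atm(RNAi), 1988 ± 285 CPM in irradiated unc-22(RNAi), 2051 ± 31.3 CPM in unirradiated atm(RNAi) and 2127 ± 163 CPM in unirradiated unc-22(RNAi) (SD, n = 4 each). The remaining 5 of the 10 had means between 628 and 925 CPM.

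**Figure D2:**
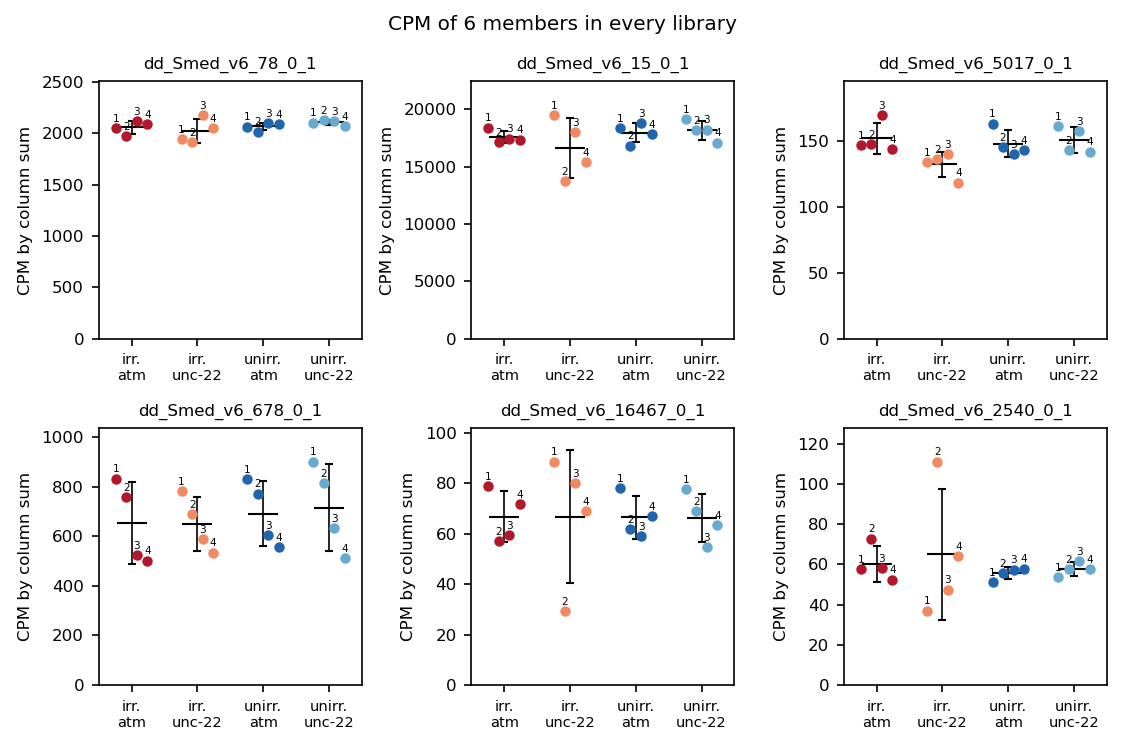
CPM by column sum of 6 members (y axes from 0) in every library, with groups along the x axis, each library a point with its replicate number, and the bar and whiskers the mean and SD of 4 libraries. dd_Smed_v6_78_0_1 stays between 1914 and 2178 CPM, dd_Smed_v6_678_0_1 differs by replicate number in every group, and dd_Smed_v6_16467_0_1 and dd_Smed_v6_2540_0_1 spread widest in irradiated unc-22(RNAi).

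Equal group means did not imply equal libraries. The smallest range of group means, 0.03, belonged to dd_Smed_v6_7875_0_1. It averaged 86.0 ± 13.7 CPM in irradiated atm(RNAi), 86.1 ± 25.8 CPM in irradiated unc-22(RNAi), 84.7 ± 12.3 CPM in unirradiated atm(RNAi) and 84.0 ± 6.15 CPM in unirradiated unc-22(RNAi) (SD, n = 4 each). Its irradiated unc-22(RNAi) libraries had 116, 74.6, 97.1 and 56.9 CPM, the highest and the lowest of all 16, so nearly equal means came from libraries 2.03-fold apart. The other members with the smallest ranges were dd_Smed_v6_2742_0_1, dd_Smed_v6_9388_0_1, dd_Smed_v6_870_0_1 and dd_Smed_v6_89_0_1. Of these, dd_Smed_v6_89_0_1 averaged 388 ± 31.5 CPM in irradiated atm(RNAi), 402 ± 42.5 CPM in irradiated unc-22(RNAi), 398 ± 38.5 CPM in unirradiated atm(RNAi) and 391 ± 35.4 CPM in unirradiated unc-22(RNAi) (SD, n = 4 each). Its SDs were larger than any difference between its group means.

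A small spread within groups did not always go with close group means: the range of group means was 0.20 in dd_Smed_v6_654_0_1 and 0.16 in dd_Smed_v6_748_0_1, both among the 5 members with the smallest spread. After dd_Smed_v6_78_0_1 they were dd_Smed_v6_2943_0_1, dd_Smed_v6_654_0_1, dd_Smed_v6_823_0_1 and dd_Smed_v6_748_0_1. In dd_Smed_v6_2943_0_1 the values were 133, 144, 151 and 134 CPM in irradiated atm(RNAi), 134, 147, 140 and 125 CPM in irradiated unc-22(RNAi), 126, 125, 129 and 129 CPM in unirradiated atm(RNAi) and 139, 132, 134 and 124 CPM in unirradiated unc-22(RNAi). Irradiated atm(RNAi) held the highest library, and its lowest, at 133 CPM, was above the highest of unirradiated atm(RNAi), at 129 CPM, while the other compared pairs of groups overlapped. For dd_Smed_v6_748_0_1 the means were 299 ± 13.7 CPM in irradiated atm(RNAi), 269 ± 29.7 CPM in irradiated unc-22(RNAi), 269 ± 7.88 CPM in unirradiated atm(RNAi) and 289 ± 7.16 CPM in unirradiated unc-22(RNAi) (SD, n = 4 each). In dd_Smed_v6_748_0_1, too, every irradiated atm(RNAi) library, the lowest at 283 CPM, lay above every unirradiated atm(RNAi) library, the highest at 278 CPM. Its unirradiated unc-22(RNAi) libraries, the lowest at 279.7 CPM, also all lay above its unirradiated atm(RNAi) libraries. Both genes were among 7 members (3.5%) whose irradiated and unirradiated atm(RNAi) libraries did not overlap, where 15.7% of all tested genes had no overlap. The choice used this contrast, and nothing is read from the lower share.

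At the other end, 5 members had the widest spread within groups: dd_Smed_v6_16467_0_1, dd_Smed_v6_4676_0_1, dd_Smed_v6_678_0_1, dd_Smed_v6_5831_0_1 and dd_Smed_v6_3142_0_1. The widest, dd_Smed_v6_16467_0_1, had a mean SD of 0.33 on the log2(CPM + 1) scale and group means of 66.8 ± 10.3 CPM in irradiated atm(RNAi), 66.8 ± 26.3 CPM in irradiated unc-22(RNAi), 66.5 ± 8.46 CPM in unirradiated atm(RNAi) and 66.3 ± 9.69 CPM in unirradiated unc-22(RNAi) (SD, n = 4 each). Its libraries had 78.9, 57.2, 59.6 and 71.7 CPM in irradiated atm(RNAi), 88.7, 29.2, 80.1 and 69.1 CPM in irradiated unc-22(RNAi), 78.3, 61.8, 59.1 and 66.97 CPM in unirradiated atm(RNAi) and 77.8, 69.1, 54.8 and 63.4 CPM in unirradiated unc-22(RNAi). Replicate 2 of irradiated unc-22(RNAi) was the lowest of all 16 and replicate 1 the highest, while the 4 means differed by less than 1 CPM.

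Over all members, the SD of log2(CPM + 1) between the 4 libraries of a group had a median of 0.13 in irradiated atm(RNAi), 0.18 in irradiated unc-22(RNAi), 0.10 in unirradiated atm(RNAi) and 0.12 in unirradiated unc-22(RNAi). The SD expected from counting reads alone had a median of 0.05 in irradiated unc-22(RNAi) and of 0.03 in each of the other 3 groups, which covers counting error only because the reads carry no molecular identifiers. The other abundant genes had median SDs of 0.17 in irradiated atm(RNAi), 0.32 in irradiated unc-22(RNAi), 0.11 in unirradiated atm(RNAi) and 0.13 in unirradiated unc-22(RNAi). The gap between members and these genes was widest in irradiated unc-22(RNAi). That group had the largest of the 4 SDs for 126 of the 200 members and for 2050 of the 2843 other genes. A limit on group means also selects for small spread, since a mean of widely scattered libraries lies less often near the other means, so these SDs are a description.

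**Figure D3:**
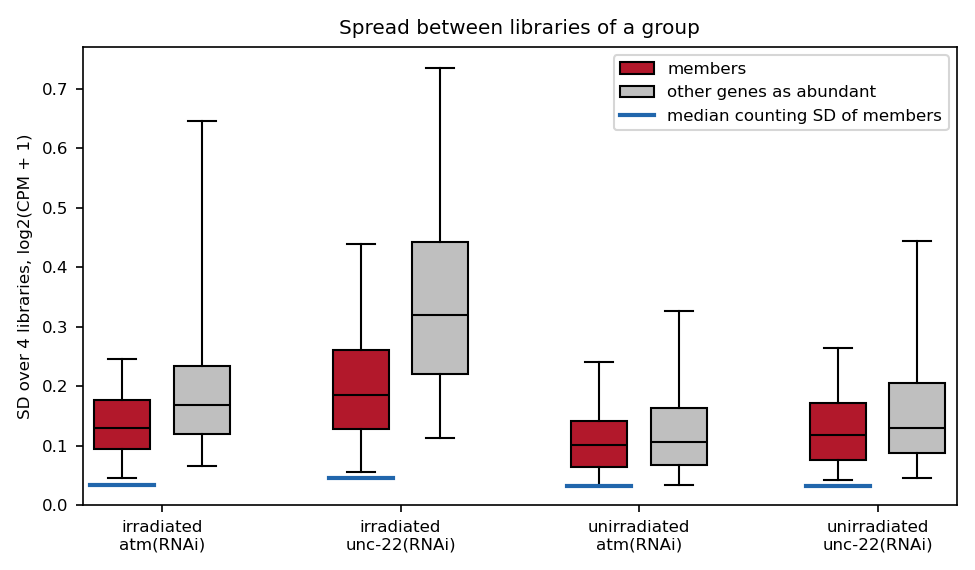
SD of log2(CPM + 1) over the 4 libraries of each group (y axis), for the 200 members in red and the 2843 other genes as abundant in grey; boxes span the quartiles with the median as a line, whiskers reach the 5th and 95th percentiles, and blue lines give the members' median SD from counting alone. The boxes of members and other genes lie closest in the unirradiated groups, with member medians of 0.10 and 0.12, and are farthest apart in irradiated unc-22(RNAi), at 0.18 for members and 0.32 for other genes.

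Read as single libraries, the lowest and the highest of the 16 lay a median of 1.45-fold apart in members (1.14 to 2.97, as a ratio of CPM + 1). In the other abundant genes this ratio had a median of 2.30 and reached 420. It was below 2 for 189 of the 200 members, against 923 of the 2843 other genes (32.5%), and below 1.5 for 123 members (61.5%), against 94 other genes (3.31%). A level that changed by less than 1.5-fold over every library was therefore met by 123 of these abundant genes under the rule and by 94 outside it.

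The libraries did not weigh equally in this spread. The number of members within 0.2 of their own 16-library mean, on the log2(CPM + 1) scale, was 171, 162, 171 and 162 in irradiated atm(RNAi) replicates 1 to 4 and 127, 107, 153 and 157 in irradiated unc-22(RNAi) replicates 1 to 4. It was 175, 168, 184 and 192 in unirradiated atm(RNAi) and 183, 184, 127 and 188 in unirradiated unc-22(RNAi). The library farthest from the others was irradiated unc-22(RNAi) replicate 2, and unirradiated unc-22(RNAi) replicate 3 had the same count as irradiated unc-22(RNAi) replicate 1. Another measure, the SD of the members' deviations from their group means, was 0.23 in the latter and 0.16 in the former. The median deviation from the 16-library mean over the 200 members stayed between -0.07 and 0.06 in every library by column sums, the scaling the choice used. Other scalings shift all members of a library at once: for irradiated unc-22(RNAi) replicate 2 the log2 factor was 0.27 by TMM and 0.22 by the upper quartile, and its members are lower by that much under them.

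**Figure D4:**
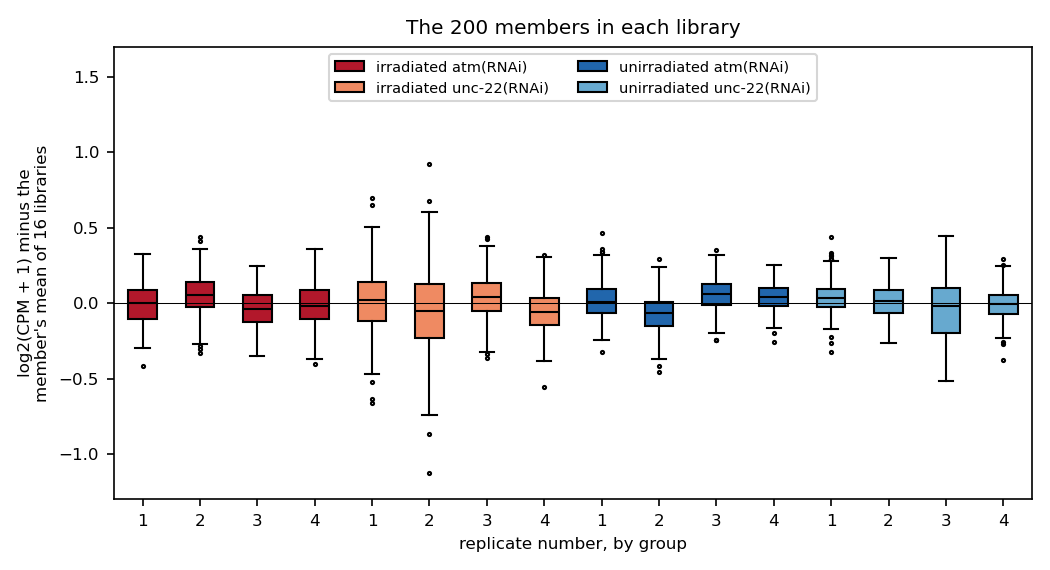
Deviation of each of the 200 members from its own mean of log2(CPM + 1) over 16 libraries (y axis), one box per library with replicate numbers on the x axis and groups by colour; boxes span the quartiles, whiskers reach 1.5 times the box, and dots are members beyond them. Medians stay between -0.07 and 0.06, and the widest box is irradiated unc-22(RNAi) replicate 2, with 107 members within 0.2 of their mean.

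The largest component of the members' scatter set 2 libraries against each other. The first principal component of the members' deviations from their group means held 40.1% of the variance. Its highest and lowest scores were those of irradiated unc-22(RNAi) replicate 2, at 0.68, and replicate 1, at -0.52, and the other 14 libraries scored between -0.22 and 0.20. There were 86 members with a positive and 114 with a negative loading, and a split by sign does not by itself show separate sets of genes. The highest loading was that of dd_Smed_v6_2540_0_1, which had 37.04, 111, 47.5 and 64.2 CPM in irradiated unc-22(RNAi) replicates 1 to 4, next to 57.6, 72.9, 58.2 and 52.4 CPM in irradiated atm(RNAi), 51.2, 55.8, 57.5 and 57.9 CPM in unirradiated atm(RNAi) and 53.6, 57.8, 61.8 and 57.7 CPM in unirradiated unc-22(RNAi). It was followed by dd_Smed_v6_3142_0_1 and dd_Smed_v6_255_0_1. In dd_Smed_v6_255_0_1 the irradiated unc-22(RNAi) libraries had 244, 449, 333 and 271 CPM, while all unirradiated libraries lay between 287 and 336 CPM. These 3 genes were highest in replicate 2 of irradiated unc-22(RNAi) and lowest in its replicate 1.

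The lowest loadings were those of dd_Smed_v6_16467_0_1, dd_Smed_v6_8238_0_1 and dd_Smed_v6_4676_0_1. For dd_Smed_v6_8238_0_1 the irradiated unc-22(RNAi) libraries had 153, 52.9, 120 and 83.4 CPM, its irradiated atm(RNAi) libraries 107, 99.5, 85.5 and 122 CPM, and unirradiated libraries 98.9 to 107 CPM in atm(RNAi) and 75.6 to 100 CPM in unc-22(RNAi). For dd_Smed_v6_4676_0_1 the irradiated unc-22(RNAi) libraries had 291, 120, 177 and 178 CPM. Here replicate 1 was high and replicate 2 low. Over all 200 members, replicate 1 of irradiated unc-22(RNAi) was above replicate 2 for 111, by at least 1.5-fold for 20, and replicate 2 was at least 1.5-fold above replicate 1 for 18. The low total and the high unmapped share of these libraries were given above, and their part in the scatter was not tested.

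For most members the means by replicate number lay farther apart than the group means, which the rule held close. For each gene the mean of log2(CPM + 1) over the 4 libraries that share a replicate number was taken, and the range of these 4 means was above the range of the group means for 145 of the 200 members (72.5%), against 7.84% of the other abundant genes. The rule limits one of these ranges and not the other, so both shares are a description. The range over replicate numbers had a median of 0.30 among the other abundant genes. The range among members was smaller, with a median of 0.19. Its highest value, 0.67, was that of dd_Smed_v6_678_0_1, with 833, 757, 524.5 and 502 CPM in irradiated atm(RNAi) replicates 1 to 4, 783, 689, 590 and 534 CPM in irradiated unc-22(RNAi), 831, 773, 606 and 555 CPM in unirradiated atm(RNAi) and 902, 813.5, 634.5 and 513 CPM in unirradiated unc-22(RNAi). In each of the 4 groups replicate 1 was the highest and replicate 4 the lowest, and every library of lane 8 was above every library of lane 7.

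Lane was not used to choose the members, so it could be tested, with the 4 groups in the model. The edgeR quasi-likelihood test called 0 of the 200 members between lanes 7 and 8 at an adjusted p under 0.05, and 3 of the 17843 tested genes (0.0168%). The smallest p among members was that of dd_Smed_v6_678_0_1, which in edgeR had a log2 ratio of lane 7 to lane 8 of -0.47 ± 0.10 (SE) and an adjusted p of 0.228. DESeq2 called this 1 member, and so did edgeR with column sums as library sizes and edgeR without irradiated unc-22(RNAi) replicate 2. This comparison was added after the data had been seen.

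The rule could also be applied to one lane and read in the other, with 2 libraries per group in each. Of the 200 genes chosen in lane 7 alone, 59 (29.5%) met the limit of 0.2 in lane 8, against 5.12% of the other 5195 genes at least as abundant. Of the 200 genes chosen in lane 8 alone, 44 (22%) met it in lane 7, against 2.57% of the other 2649. Genes chosen in lane 7 had a median range of 0.27 in lane 8, where the others had 0.70, and genes chosen in lane 8 had 0.29 in lane 7, where the others had 0.65. Genes chosen in one lane thus met the limit in the other lane more often than genes not chosen. For most chosen genes the range there was above 0.2. The genes share libraries, so these shares are a description. Of the present members, 84 met the limit in lane 7 alone and 122 in lane 8 alone.

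In sum, the members took up 5.97 ± 0.108% of the gene counts in irradiated atm(RNAi), 5.81 ± 0.542% in irradiated unc-22(RNAi), 6.03 ± 0.187% in unirradiated atm(RNAi) and 6.06 ± 0.143% in unirradiated unc-22(RNAi) (SD, n = 4 each). The lowest library was irradiated unc-22(RNAi) replicate 2, at 5.19%, and the highest irradiated unc-22(RNAi) replicate 1, at 6.34%. Within the limit, group means had no fixed order. Irradiated atm(RNAi) had the highest mean for 46 members, irradiated unc-22(RNAi) for 45, unirradiated atm(RNAi) for 61 and unirradiated unc-22(RNAi) for 48. Irradiated atm(RNAi) had the lowest mean for 48 members, irradiated unc-22(RNAi) for 78, unirradiated atm(RNAi) for 30 and unirradiated unc-22(RNAi) for 44. Among the other 2843 abundant genes irradiated unc-22(RNAi) held the lowest mean in 2038.

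Irradiation in atm(RNAi) gave the members a median difference of -0.02 on the log2(CPM + 1) scale, with 81 higher and 119 lower, beside medians of -0.13 in the other abundant genes and 0.03 in all 17843 tested genes. In the edgeR quasi-likelihood test, with libraries scaled by TMM (a trimmed mean of log ratios between libraries), 0 members were called, where 3.58% of all tested genes were. No member had an unadjusted p under 0.05 in that fit, and limma-voom and DESeq2 also called 0. The fitted log2 fold changes of the members lay between -0.20 and 0.19, with a median SE of 0.13. For a member with this SE, a difference at the limit of 0.2 is less than 2 SE.

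Knockdown of atm gave similar counts. The median differences given here are by column sums, while the edgeR fit used TMM factors. In irradiated cells the members' median difference between atm(RNAi) and unc-22(RNAi) was 0.01, with 113 higher and 87 lower, beside 0.31 in the other abundant genes and -0.05 in all tested genes. The edgeR test called 0 members, where it called 14.8% of all tested genes, and 4 members had an unadjusted p under 0.05. In that fit the members' log2 fold changes had a median of 0.11 and lay between -0.11 and 0.31. In unirradiated cells the median difference was 0.01, with 105 higher and 95 lower, beside 0.01 in the other abundant genes and 0.04 in all tested genes. There edgeR called 0 members and 0% of all tested genes, and no member had an unadjusted p under 0.05. The interaction, which asks whether irradiation acted differently under atm and unc-22 RNAi, was called for 0 members and 3.58% of all tested genes. It had 4 members at an unadjusted p under 0.05. The fitted interaction of the members lay between -0.19 and 0.47 in log2, with a median of 0.13 and a median SE of 0.19. DESeq2 and limma-voom called 0 members in these 3 contrasts as well. The libraries of atm(RNAi) and unc-22(RNAi) did not overlap in CPM for 1 member in irradiated cells (0.5%), where 14.4% of all tested genes did not, and for 2 members in unirradiated cells (1%), where 2.95% did not. All of these contrasts entered the choice, so nothing is read from the low counts. In unirradiated cells the 0 called by edgeR also equals the share over all tested genes.

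Irradiation in unc-22(RNAi) depended on how libraries were scaled. By column sums, which the rule used, the members' median difference was -0.02, with 90 higher and 110 lower, beside -0.45 in the other abundant genes and 0.16 in all tested genes. Libraries did not overlap for 3 members (1.5%), where 39.4% of all tested genes did not. With TMM factors the median was -0.16, with 8 members higher and 192 lower. Factors by relative log expression gave -0.05 (74 higher, 126 lower) and the upper quartile gave -0.10 (43 higher, 157 lower). Column sums that left out the 2 genes with the most reads gave 0.14 in the other direction (186 higher, 14 lower). Under that last scaling 108 members met the limit of 0.2, under TMM 97, under the upper quartile 147 and under relative log expression 169. The level of the whole set after irradiation in unc-22(RNAi) was thus lower, near equal or higher as the scaling varied, by up to 0.16 downward and 0.14 upward.

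The 2 genes with the most reads, which are not members, were dd_Smed_v6_4_1_1 and dd_Smed_v6_7_0_1. They took 7.93 ± 1.95% of the gene counts in irradiated atm(RNAi), 14.4 ± 5.55% in irradiated unc-22(RNAi), 5.05 ± 2.61% in unirradiated atm(RNAi) and 4.74 ± 1.24% in unirradiated unc-22(RNAi) (SD, n = 4 each). In irradiated unc-22(RNAi) replicates 1 to 4, dd_Smed_v6_4_1_1 had 26930, 123600, 46370 and 98550 CPM. These reads are part of the column sum by which each member was divided, so the share left for all other genes was smallest in irradiated unc-22(RNAi). With the 2 genes left out, the members took 6.49% of the counts in irradiated atm(RNAi), 6.78% in irradiated unc-22(RNAi), 6.35% in unirradiated atm(RNAi) and 6.36% in unirradiated unc-22(RNAi).

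**Figure D5:**
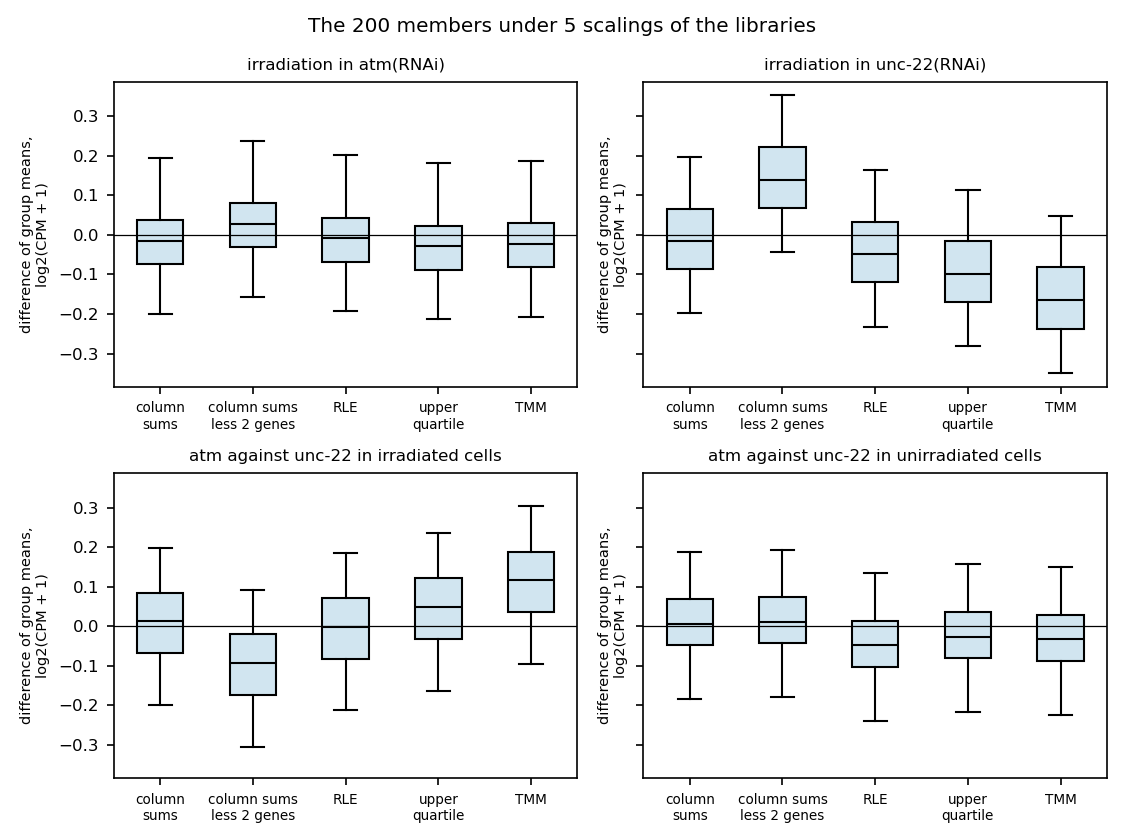
Difference of group means of log2(CPM + 1) for the 200 members (y axis) in 4 contrasts, under 5 scalings of the libraries (x axis; RLE, relative log expression); boxes span the quartiles with the median as a line, and whiskers reach the lowest and the highest member. For irradiation in unc-22(RNAi) the medians run over -0.02, 0.14, -0.05, -0.10 and -0.16 along the x axis, while for irradiation in atm(RNAi) all 5 medians lie between -0.03 and 0.03.

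The comparison of atm(RNAi) with unc-22(RNAi) in irradiated cells shares these irradiated libraries. Its member medians were 0.01 by column sums, 0.12 by TMM (173 higher, 27 lower), 0.05 by the upper quartile, -0.00 by relative log expression and -0.09 with the 2 genes left out of the sums (36 higher, 164 lower). The same median in unirradiated cells stayed between -0.05 and 0.01 over the 5 scalings.

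With TMM factors, edgeR called 9 members for irradiation in unc-22(RNAi), all of them lower, where 47.3% of all tested genes were called and 23.5% were called lower. They were dd_Smed_v6_5017_0_1, dd_Smed_v6_1263_0_1, dd_Smed_v6_180_0_1, dd_Smed_v6_1165_0_1, dd_Smed_v6_2154_0_1, dd_Smed_v6_662_0_1, dd_Smed_v6_972_0_1, dd_Smed_v6_654_0_1 and dd_Smed_v6_982_0_1, with log2 fold changes between -0.35 and -0.28. The count was 0 by column sums, by relative log expression, by the upper quartile and by DESeq2. It was 11 by limma-voom, 11 with counts without strand and 36 without irradiated unc-22(RNAi) replicate 1. The median over all tested genes differed as well, and was 0.17 under TMM and 0.32 under column sums in the edgeR fit.

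The smallest p among members was that of dd_Smed_v6_5017_0_1. It had 134, 136, 140 and 118 CPM in irradiated unc-22(RNAi) and 161, 143, 157 and 142 CPM in unirradiated unc-22(RNAi), with 147, 147, 169.5 and 143 CPM in irradiated atm(RNAi) and 163, 145, 140 and 143 CPM in unirradiated atm(RNAi). Every irradiated unc-22(RNAi) library was below every unirradiated one by column sums. The edgeR log2 fold change was -0.34 ± 0.12 (SE, adjusted p = 0.0254), and this gene was one of the 3 members closest to the limit from inside. The second, dd_Smed_v6_1263_0_1, had 222, 221, 254.5 and 231 CPM in irradiated unc-22(RNAi) and 275, 252, 254 and 280 CPM in unirradiated unc-22(RNAi), so the groups overlapped, with an edgeR log2 fold change of -0.34 ± 0.12 (SE, adjusted p = 0.0267).

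The third, dd_Smed_v6_180_0_1, had 211, 203, 217 and 191 CPM in irradiated unc-22(RNAi), all below the 223, 230.2, 256 and 235 CPM in unirradiated unc-22(RNAi). Its edgeR log2 fold change was -0.35 ± 0.12 (SE, adjusted p = 0.0286). The fourth, dd_Smed_v6_1165_0_1, had 100, 134, 120 and 116 CPM in irradiated unc-22(RNAi) and 127, 135, 119 and 132 CPM in unirradiated unc-22(RNAi), which overlapped. Its edgeR log2 fold change was -0.28 ± 0.10 (SE, adjusted p = 0.0322). In atm(RNAi) the edgeR log2 fold change with irradiation was 0.04 for dd_Smed_v6_5017_0_1, -0.04 for dd_Smed_v6_1263_0_1, 0.02 for dd_Smed_v6_180_0_1 and -0.15 for dd_Smed_v6_1165_0_1, with SEs between 0.10 and 0.12. None of the 4 was called there or in the interaction, so a difference between the RNAi groups was not shown. These tests cannot decide it, since the choice limited all 4 group means of each member. By column sums the change of dd_Smed_v6_1165_0_1 was -0.14 in atm(RNAi) and -0.13 in unc-22(RNAi).

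Some features of the members were not used by the rule, the strand of the reads and the number of transcripts joined into a gene. Reads on the strand opposite to the counted one made up a median of 1.06% of a member's reads, between 0.183% and 17.4%, against a median of 1.09% in the other abundant genes. It was above 10% in 2 members (1%) and in 28 other genes (0.985%). The 2 members were dd_Smed_v6_2461_0_1 at 17.4% and dd_Smed_v6_180_0_1 at 12.4%, and the next was dd_Smed_v6_5026_0_1 at 6.87%. Counted without strand, 190 of the 200 members met the limit, and on the opposite strand alone 6 did. The latter count rests on few reads, given the median share of 1.06%. A gene of 1 transcript was the rule in both sets, with 191 members (95.5%) and 2691 other genes (94.7%). The most transcripts joined in a member were 23, in dd_Smed_v6_490_0_1, a gene named after its value was seen, whose main transcript held 35.6% of its reads. Reads that mapped to several places were not counted, so levels of genes with near-identical copies are uncertain.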

How the data were processed

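Poly(A) RNA of sorted X1 cells was sequenced in 16 libraries made with a directional kit, per the labels' protocols. Raw read counts were deposited in a matrix of genes and in a file per library with the layout of STAR gene counts. Trim Galore 0.6.5 and STAR 2.7.9 are named in the submitters' processing notes, and their settings are not given in the sources used here. Of the 429328 cells of the matrix of deposited counts, 0 differed from the reverse-strand counts of the per-library files summed over the transcripts of a gene (41745 transcripts in all). Reads outside genes, such as unmapped and multimapped ones, did not enter a total.

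The members, the lists of named genes and the settings were chosen with earlier results of these data known. CPM was computed with column sums as library sizes and a pseudocount of 1 before the log2. Named genes are the 10 members with the highest mean CPM, the 5 with the smallest and the 5 with the largest SD within groups, the 5 with the smallest range of group means, the 3 genes just inside and the 3 just outside the limit, the 2 members and 2 genes on either side of the abundance limit, the 4 members with the smallest p, the 3 with the highest and the 3 with the lowest loading on the first component, the 3 with the highest opposite-strand share and the 2 genes with the most reads in the matrix; the members called and dd_Smed_v6_490_0_1 were named after their values were seen.

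Tests used edgeR 4.0.16 in R 4.3.3 on the whole matrix: filterByExpr kept 17843 genes, all 200 members among them, with TMM factors, a coefficient per group, quasi-likelihood tests of 5 contrasts and Benjamini-Hochberg adjustment over all tested genes (called at an adjusted p under 0.05). The lane test added lane to that model. limma 3.58.1 (voom), DESeq2 1.42.0, other scaling factors, no filter, counts without strand, a replicate block, each lane alone and each library left out were alternatives. Scripts were tested on simulated counts. No gene names, sequences, lengths or positions were used here, and marker and pathway lists written by gene symbol were not analysed here.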

Additional observations from a re-analysis of the deposited data

Results flagged for a closer look

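For the 39 named members and 2 sums over members, 164 groups of 4 libraries were searched for a single library far from the other 3, by its gap to the nearest as a share of the group's whole range (Dixon's 95% critical value). There were 6 such libraries. Chance alone marks about 1 in 20 such groups. dd_Smed_v6_654_0_1 had 113 CPM in unirradiated atm(RNAi) replicate 1, where the other 3 libraries had 123 to 125 CPM, and 114 CPM in unirradiated unc-22(RNAi) replicate 3, where the others had 118 CPM. dd_Smed_v6_9388_0_1 had 70.2 CPM in irradiated unc-22(RNAi) replicate 1, where the others had 54.1 to 55.9 CPM. dd_Smed_v6_5017_0_1 had 169.5 CPM in irradiated atm(RNAi) replicate 3, where the others had 143 to 147 CPM. dd_Smed_v6_6469_0_1 had 45.3 CPM in unirradiated unc-22(RNAi) replicate 3, where the others had 49.5 to 50.2 CPM. dd_Smed_v6_1165_0_1 had 117.5 CPM in unirradiated atm(RNAi) replicate 1, where the others had 124.5 to 126 CPM. Apart from dd_Smed_v6_9388_0_1 and dd_Smed_v6_5017_0_1 the odd library was the low one.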

How the results depend on the processing

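Counts of called members stayed at 0 for irradiation in atm(RNAi), for atm against unc-22 in unirradiated cells and for the interaction under every alternative run. With limma-voom and with counts without strand, 11 members were called for irradiation in unc-22(RNAi), where the main fit called 9. For irradiation in unc-22(RNAi) the 9 calls became 0 with relative log expression factors, upper quartile factors, column sums, DESeq2 or lane 8 alone, 2 without the filter and 4 in lane 7 alone, and ran over 1 to 36 with a library left out: 36 without irradiated unc-22(RNAi) replicate 1, 1 without unirradiated atm(RNAi) replicate 4, 2 without irradiated atm(RNAi) replicate 1, 3 without unirradiated unc-22(RNAi) replicate 4, and 5 each without unirradiated atm(RNAi) replicate 3, unirradiated unc-22(RNAi) replicate 1 or unirradiated unc-22(RNAi) replicate 2. For atm against unc-22 in irradiated cells leaving out a library gave 0 to 4: 2 without irradiated atm(RNAi) replicate 2, 4 without irradiated unc-22(RNAi) replicate 1 and 1 without its replicate 2. The lane test gave 1 member with column sums or DESeq2, and 0 to 1 with a library left out (1 without irradiated unc-22(RNAi) replicate 2). Of the 200 members, 97 met the limit with TMM factors, 108 with sums less the 2 genes with the most reads, 6 on the opposite strand, 84 in lane 7, 122 in lane 8 and 139 to 193 with a library left out, 139 without irradiated unc-22(RNAi) replicate 1. With the 2 genes left out of the gene total the members' share was 6.49% in irradiated atm(RNAi), 6.78% in irradiated unc-22(RNAi), 6.35% in unirradiated atm(RNAi) and 6.36% in unirradiated unc-22(RNAi). The cause of these changes was not tested. Fewer libraries enter a lane alone or a left-out fit, and few reads of the members lie on the opposite strand.

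The main fit did not pair libraries by replicate number, and whether they are paired was not settled. The correlation of same-numbered libraries' deviations from their group means lay between -0.15 and 0.63 over 16 pairs. It was over 0.1 in 10 of them. Of the 8 libraries of a contrast, 6 correlated best with their own number for irradiation in atm(RNAi), 3 for irradiation in unc-22(RNAi) and 4 for atm against unc-22 in either state. With a replicate block, edgeR called 11 members for irradiation in unc-22(RNAi) and 0 in the other 4 contrasts. Over all tested genes the block moved the share called from 14.8% to 20.7% for atm against unc-22 in irradiated cells. The share went from 3.58% to 7.05% for the interaction and from 3.58% to 4.85% for irradiation in atm(RNAi). For irradiation in unc-22(RNAi) it went from 47.3% to 47.7%, and for atm against unc-22 in unirradiated cells it stayed at 0%. The limit on group means cannot change under a block, since every group holds each replicate number once and the block leaves the differences between group means as they are. Membership rests on column sums and on group means of 4 libraries.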

Other observations

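Without irradiated unc-22(RNAi) replicate 2, 304 of the 3043 abundant genes met the limit of 0.2, against 200 with all libraries, and 102 of the 200 members were among the 200 then chosen by abundance. Without irradiated unc-22(RNAi) replicate 1, 168 abundant genes met it, 139 of them members. Leaving out any other single library gave 165 to 239 abundant genes within the limit. With the 2 genes with the most reads left out of the sums, 318 abundant genes met the limit, and 64 of the 200 chosen by abundance were members.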
